A study of Mus musculus with 6 samples.

Results

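The lysozyme genes Lyz2 and Lyz1 and 8 genes that flank them on mouse chromosome 10 (Yeats4, Cpsf6, Frs2, Cct2, Rab3ip, Cpm, Mdm2 and Slc35e3) were examined in bone marrow-derived macrophages (BMDMs), that is 10 of the 23935 gene symbols in the deposited tables. All 10 symbols were present, and they were picked by name. Lyz2 and Lyz1 were on the list because of their large differences between the genotypes in these same libraries, so their values are given as a description without a test. The 8 flanking genes were listed for their position, with the loss of Lyz2 already known, and the question for them was whether the loss was confined to Lyz2.

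BMDMs are macrophages grown from marrow cells, here from the femur and tibia in medium with M-CSF for 7 days, and all cultures received LPS at 10 ng/mL plus IFN-γ at 25 ng/mL for 16 h. The PKM2FL/FL mice carry the floxed PKM2 allele alone, and the PKM2ΔMAC mice carry the same floxed allele together with LysM-Cre. Total RNA of 3 mice per genotype was sequenced with 1 library per mouse, so that Cre and loss of PKM2 came together in every PKM2ΔMAC library and the effects of these on any gene cannot be told apart. The methods of the study name male mice as the source of BMDMs primed in the same way for flow cytometry. For the sequenced cultures, the sex and age of the mice and the number of LysM-Cre copies they carried are not given in the sources used here. Cultures without LPS and IFN-γ and mice with LysM-Cre but no floxed allele were not analysed here.

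Lysozyme is a secreted enzyme that cuts the peptidoglycan of bacterial cell walls. The mouse has a pair of neighbouring genes for it, which arose by duplication. Lyz2 encodes lysozyme M, a major product of macrophages and neutrophils, and Lyz1 encodes lysozyme P, best known from the Paneth cells of the small intestine. In LysM-Cre mice the coding sequence of Cre recombinase has been placed at the start of the coding region of Lyz2, so that the Lyz2 promoter drives Cre in myeloid cells and the targeted allele no longer encodes lysozyme M.

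Lyz2 (ENSMUSG00000069516.8) lies on the minus strand at chr10:117277331-117282321 of GRCm38 in GENCODE M21, and Lyz1 (ENSMUSG00000069515.6) lies on the same strand at chr10:117287797-117292868, 5.48 kb away. Each has 4 exons and a coding region of 447 bases, of which 22 differ, an identity of 95.1%. The transcripts are 1316 bases (Lyz2) and 1263 bases (Lyz1) long. Since counts of the pair rest on telling them apart, the first 120 coding bases are shown, from the start codon at which Cre was placed. Bases that differ between the genes, 11 in this stretch, are in capitals.
Lyz2: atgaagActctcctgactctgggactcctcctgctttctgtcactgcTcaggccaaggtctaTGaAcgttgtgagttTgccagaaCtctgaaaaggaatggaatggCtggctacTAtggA
Lyz1: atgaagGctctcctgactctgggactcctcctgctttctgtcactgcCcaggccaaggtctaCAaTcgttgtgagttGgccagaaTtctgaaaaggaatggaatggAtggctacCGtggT

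Of all stretches of 100 bases in the Lyz2 transcript, 2.0% were found without a mismatch in the Lyz1 transcript, and 8.1% with at most 1 mismatch. For stretches of 50 bases the shares were 15.4% and 42.3%. The read length and the handling of reads that map to several places are not given in the sources used here, so some reads of this pair may have been assigned to the wrong gene, and low values of either gene beside a high value of the other are uncertain to that extent.

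The RefSeq promoters of the pair span 300 bases, 250 before the start given by RefSeq and 50 after it. Base by base with no gaps, their identity was 67.0%, with 40.0% over the first 150 bases and 94.0% over the last 150. An insertion or deletion would lower such an identity, and likeness in a gapped alignment was not tested. Each promoter is shown over the 100 bases before the start given by RefSeq (GRCm38.p6), with differing bases in capitals. This stretch was chosen because it belongs to the Lyz2 promoter that in LysM-Cre mice drives Cre. The Lyz2 stretch is chr10:117282273-117282372 and the Lyz1 stretch is chr10:117292869-117292968, both on the minus strand. GENCODE places the start of Lyz2 further upstream, within this stretch.
Lyz2: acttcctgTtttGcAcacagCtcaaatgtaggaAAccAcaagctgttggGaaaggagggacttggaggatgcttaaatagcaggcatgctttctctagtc
Lyz1: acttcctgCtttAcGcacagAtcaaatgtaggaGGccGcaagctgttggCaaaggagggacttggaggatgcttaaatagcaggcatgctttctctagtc
They differed at 8 of 100 bases. The ETS core motif GGAAGT (reverse strand ACTTCC), which PU.1 and related factors can bind, occurred once in the RefSeq promoter of each gene, counted over 300 bases, and in 24.1% of all 27025 promoters of that length. TATAAA (reverse strand TTTATA) occurred in neither promoter and in 14.2% of all promoters. TTAAATA (reverse strand TATTTAA), searched for after the sequences were seen, occurred once in each and in 4.72% of all promoters. These matches describe the letters only.

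Library totals were between 49957449 and 54524651 counts. PKM2ΔMAC replicate 2 stood apart from the other libraries of its genotype, where counts compared with replicates 1 and 3 gave chi-square values of 43.1 and 53.8 per degree of freedom, while the remaining pairs within a genotype were at 7.55 to 13.7. Without it, 299 genes were called in place of 68. CPM, the counts scaled to a common library size by the TMM method, is used within a gene, and TPM, which also divides by gene length, is used between genes. Pkm, which encodes PKM1 and PKM2 and was the targeted gene, was lower in PKM2ΔMAC, with 987, 1212 and 1005 CPM against 1714, 1698 and 1705 (log2 fold change -0.68, SE 0.08, adjusted p = 0.00913 from edgeR after Benjamini-Hochberg adjustment). Summed over 12 macrophage markers, the level was 13579 to 14172 CPM in PKM2FL/FL and 13359 to 14470 CPM in PKM2ΔMAC. Of these 12, edgeR called 1 and DESeq2 called 2, against 0.412% and 1.38% of all genes they tested. The marker called by edgeR was Itgam, which encodes CD11b, at 196 ± 2.54 CPM and 264 ± 9.31 CPM (SD, n = 3 each, log2 fold change 0.43, SE 0.04, adjusted p = 0.00272).

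Lyz2 was nearly absent from PKM2ΔMAC BMDMs. PKM2FL/FL replicates 1 to 3 held 17006, 17746 and 18721 CPM, whereas PKM2ΔMAC replicates 1 to 3 held 31.8, 24.3 and 29.2 CPM. The lowest PKM2FL/FL library was thus far above the highest PKM2ΔMAC library. Means were 17824.5 ± 860.1 and 28.4 ± 3.80 CPM (SD, n = 3 each) and the log2 fold change -9.29 (SE 0.13), so that 0.160% of the PKM2FL/FL level was left, or 627-fold less. The remaining signal rested on 1686, 1334 and 1451 counts, well over the 3 counts that a count of 0 would allow. In PKM2FL/FL, Lyz2 alone took between 1.67% and 1.85% of all counts of a library and between 4.48% and 4.96% of its TPM.

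Lyz1 had the opposite pattern at a far lower level. PKM2FL/FL replicates 1 to 3 held 10.2, 12.4 and 14.4 CPM and PKM2ΔMAC replicates 1 to 3 held 136, 117 and 103 CPM, with no overlap. The means were 12.3 ± 2.14 and 119 ± 16.2 CPM (SD, n = 3 each), a 9.64-fold higher level in PKM2ΔMAC and a log2 fold change of 3.27 (SE 0.16). The spread between mice was 17.4% of the mean in PKM2FL/FL and 13.6% in PKM2ΔMAC, while that of Lyz2 was 4.83% and 13.4%.

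**Figure D1:**
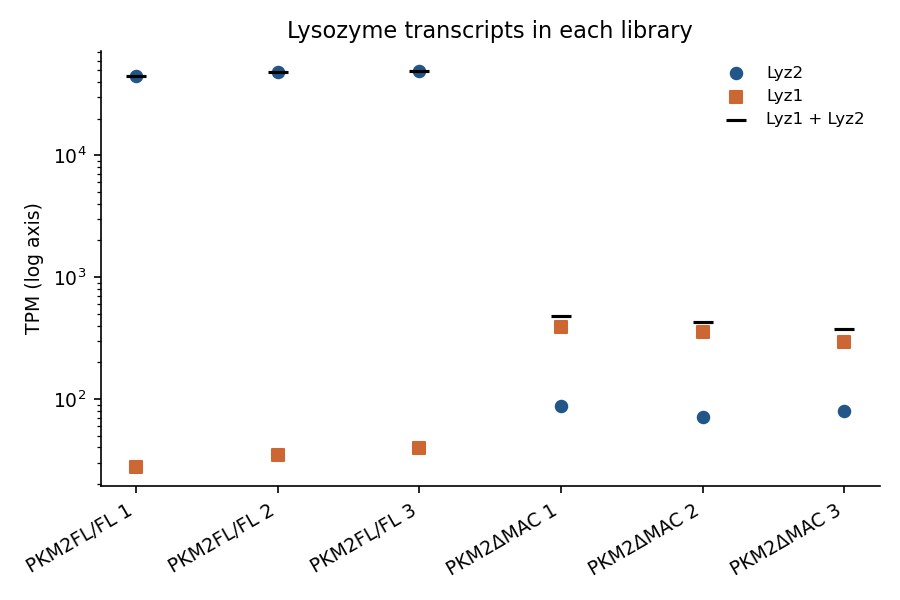
TPM on a log axis of Lyz2 (circles), Lyz1 (squares) and their sum (bars) in each of the 6 libraries. In PKM2FL/FL the sum coincides with Lyz2, from 44825 to 49590 TPM, and in PKM2ΔMAC it lies just above Lyz1, which was at 295 to 390 TPM.

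Per length, Lyz2 was at 47420 ± 2411 TPM in PKM2FL/FL and 79.4 ± 8.60 TPM in PKM2ΔMAC, and Lyz1 at 34.2 ± 5.99 and 346 ± 48.0 TPM (SD, n = 3 each). The gain of Lyz1 amounted to 0.659% of the loss of Lyz2 in TPM. The sum of the pair fell from 47454 ± 2417 to 425 ± 51.3 TPM, to 0.896% of the PKM2FL/FL level. Lyz1 held 0.0597% of the lysozyme counts in PKM2FL/FL replicate 1 (95% Wilson interval 0.0548% to 0.0649%), 0.0697% in replicate 2 (0.0645% to 0.0753%) and 0.0770% in replicate 3 (0.0716% to 0.0828%). In PKM2ΔMAC it held 81.0% (80.2% to 81.8%), 82.8% (82.0% to 83.6%) and 77.9% (76.9% to 78.9%) in replicates 1 to 3. These intervals cover counting error only. The main lysozyme transcript was therefore Lyz2 in each PKM2FL/FL library and Lyz1 in each PKM2ΔMAC library.

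Of the other lysozyme family genes listed (8), only Lyzl4, a lysozyme-like gene, had a row in the tables. Its level was 1.62 ± 0.228 CPM without and 1.77 ± 0.488 CPM with LysM-Cre (SD, n = 3 each, log2 fold change 0.13, SE 0.24, adjusted p = 0.910, edgeR). Genes for other antibacterial proteins of myeloid cells had a median log2 fold change of 1.19 (16 tested, 14 higher and 2 lower), against -0.0002 over all 16516 genes tested. The 2 lower genes were Acod1 (-0.75, SE 0.23) and Irgm1 (-0.04, SE 0.13), which are not among the neutrophil markers listed below. None of the 16 was called by edgeR, 10 had an unadjusted p under 0.05 (9.83% of all genes tested did), and DESeq2 called 7 (it called 1.38% of its 20217 genes). The most abundant by TPM was S100a9, a calcium-binding antimicrobial protein of neutrophils, with 8.19 ± 4.11 CPM in PKM2FL/FL against 32.5 ± 12.5 in PKM2ΔMAC (SD, n = 3 each, adjusted p = 0.340, edgeR).

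Many of these antibacterial genes are neutrophil genes, and neutrophils also make lysozyme M. S100a8, S100a9, Ngp, Ltf, Camp, Mpo and Elane are also on the list of neutrophil markers, so the results of these lists are not separate. The summed level of the 10 neutrophil markers in the tables was 20.5 to 50.3 CPM in PKM2FL/FL and 90.8 to 171 CPM in PKM2ΔMAC, and all 9 tested markers had a higher estimate in PKM2ΔMAC (adjusted p of 0.213 or more, edgeR). Of these 9, 5 had an unadjusted p under 0.05, and DESeq2 called 4 neutrophil markers, against 9.83% and 1.38% over all genes. The summed levels did not overlap and were higher in PKM2ΔMAC, as were those of Lyz1, and the part of these markers in the difference of Lyz1 was not tested. In RNA from whole cultures, a different number of cells of a type and a different amount of RNA per cell cannot be told apart. None of the 6 Paneth cell markers listed had a row in the tables. Summed levels overlapped between the genotypes for markers of B cells (39.6 to 50.9 and 42.6 to 55.7 CPM), of dendritic cells (4.27 to 4.64 and 4.08 to 4.67 CPM), of stromal cells (5805 to 6378 and 5557 to 7017 CPM), of T and NK cells (0.423 to 0.787 and 0.396 to 0.473 CPM) and of eosinophils, mast cells and basophils (7.06 to 9.33 and 6.06 to 9.18 CPM).

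The genes with profiles most like that of Lyz2 were sought among 13078 genes by the root mean square difference between log2(CPM + 0.1) profiles over the 6 libraries, each centred on its mean. They were Nxpe1-ps (1.85), Gm26740 (2.16) and Hmgb1-ps8 (2.24), a pair of pseudogenes and an antisense transcript, with log2 fold changes of -6.06, -5.70 and -6.50. For Lyz1 they were Gm3375 (0.38), Gm5503 (0.59) and Amd2 (0.60), with log2 fold changes of 3.42, 2.89 and 3.22. These differences are in log2 units, and the profiles include the gap between genotypes for which Lyz2 and Lyz1 had been chosen. By position, Nxpe1-ps lies on chr9 and Gm3375 on chr7, while Gm26740, Hmgb1-ps8 and Amd2 lie on chr10, as Lyz2 does. The span of Hmgb1-ps8 (chr10:22262742-22263367) lies within that of Gm26740 (chr10:22187013-22302835), so their positions are not separate. No position was found for Gm5503.

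None of the 7 flanking genes that could be tested shared the loss of Lyz2, and the lowest bound of their 95% intervals was a log2 fold change of -0.36, for Rab3ip. Of the 8, 7 had enough counts for the test, 1 (Cpsf6) was called, in the higher direction, and 0 were called lower by edgeR (0 also by DESeq2, and 0 at an unadjusted p under 0.05). Over all genes tested, 0.412% were called, 0.285% higher and 0.127% lower. The libraries of the genotypes lay apart for 3 of the 7 genes (Cpsf6, Yeats4 and Cct2), each time with PKM2ΔMAC higher, while this was so for 17.2% of all genes tested, 8.92% with PKM2ΔMAC higher and 8.32% with it lower. An exact permutation test of 3 libraries against 3 cannot give a two-sided p below 0.10. These 3 genes reached that value, which only restates that their libraries lay apart.

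**Figure D2:**
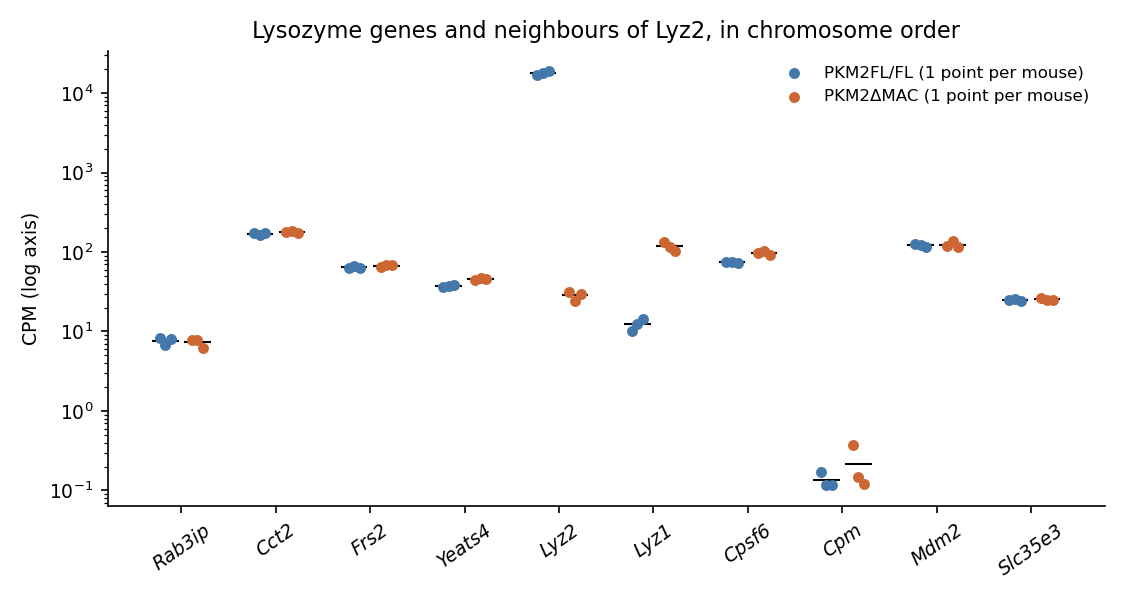
CPM on a log axis of the 10 genes in their order along chromosome 10, with 1 point per mouse and the group mean as a line. Lyz2 lies at 17006 to 18721 CPM in PKM2FL/FL and at 24.3 to 31.8 CPM in PKM2ΔMAC, Lyz1 goes the other way, and the remaining genes differ little in comparison.

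The listed gene nearest to the lysozymes on each side had all PKM2ΔMAC libraries above all PKM2FL/FL libraries. Cpsf6 encodes the larger subunit of cleavage factor Im, which helps to choose where a pre-mRNA is cut and polyadenylated, and lies 62.4 kb from Lyz2, on the side of Lyz1, at chr10:117344673-117380015. PKM2FL/FL replicates 1 to 3 held 74.4, 75.1 and 73.2 CPM and PKM2ΔMAC replicates 1 to 3 held 98.0, 104 and 92.2 CPM. The means were 74.2 ± 0.939 CPM for PKM2FL/FL and 98.2 ± 6.12 CPM for PKM2ΔMAC (SD, n = 3 each). Cpsf6 rose by 0.40 on the log2 scale (SE 0.05), or 1.32-fold, with an adjusted p of 0.0124 from edgeR. The call was lost without PKM2FL/FL replicate 1, 2 or 3 (adjusted p = 0.0978, 0.0977 and 0.135) or PKM2ΔMAC replicate 1 (0.0550), and on the TPM values, with log2 fold changes from 0.36 to 0.47 over all 18 alternatives.

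Yeats4 encodes a reader of acetylated histones in the TIP60 and SRCAP chromatin complexes and lies 52.8 kb from Lyz2 on the other side, at chr10:117215221-117224507. PKM2FL/FL replicates 1 to 3 held 35.9, 37.4 and 38.6 CPM and PKM2ΔMAC replicates 1 to 3 held 44.0, 46.7 and 46.3 CPM, again without overlap. The log2 fold change was 0.29 (SE 0.05, 95% interval 0.18 to 0.40), with an adjusted p of 0.0579 from edgeR, which misses the threshold of 0.05. DESeq2 gave Yeats4 an adjusted p of 0.00302, and edgeR gave 0.0264 without PKM2ΔMAC replicate 2. Its log2 fold change was positive under all 18 alternatives, from 0.26 to 0.36.

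The listed genes farther out on the Yeats4 side differed less. Frs2, a docking protein that links fibroblast growth factor and neurotrophin receptors to Ras signalling, lies 129 kb away at chr10:117069427-117148534. The PKM2FL/FL libraries held 63.5, 66.1 and 63.3 CPM and the PKM2ΔMAC libraries 64.9, 69.4 and 68.5 CPM, and the genotypes overlapped (log2 fold change 0.07, 95% interval -0.026 to 0.17, adjusted p = 0.639, edgeR). Cct2, a subunit of the TRiC chaperonin that folds actin and tubulin, lies 214 kb away at chr10:117051001-117063814, with 173, 165 and 171 CPM against 180, 183 and 176 in the same order. The lowest PKM2ΔMAC library was just above the highest PKM2FL/FL library, but the difference did not pass the test (log2 fold change 0.08, 95% interval -0.0051 to 0.17, adjusted p = 0.534, edgeR). Rab3ip encodes Rabin8, an exchange factor that activates Rab8 in vesicle traffic, and lies 327 kb away at chr10:116905784-116950769. The PKM2FL/FL libraries held 8.17, 6.75 and 7.93 CPM and the PKM2ΔMAC libraries 7.84, 7.87 and 6.19 CPM, with overlap (log2 fold change -0.06, 95% interval -0.36 to 0.24, adjusted p = 0.925, edgeR). The interval of Rab3ip is the widest of the 7. An opposite-strand transcript, 4933412E12Rik, overlaps an exon of Rab3ip, and whether counting used strand is not given in the sources used here.

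On the Cpsf6 side, Cpm encodes a membrane-bound carboxypeptidase that removes C-terminal arginine and lysine and lies 347 kb from Lyz2 at chr10:117629500-117687352. It had only 9, 6 and 6 counts in PKM2FL/FL and 20, 8 and 6 counts in PKM2ΔMAC replicates 1 to 3, and it did not pass the filter on low counts. The genotypes overlapped, and Cpm was not called by edgeR when the filter was left out, where Cpsf6 and Yeats4 were the flanking genes called. Mdm2, the ubiquitin ligase that restrains p53, lies 407 kb away at chr10:117688875-117710758. The PKM2FL/FL libraries held 126, 124 and 117 CPM and the PKM2ΔMAC libraries 118, 136 and 117 CPM, and PKM2ΔMAC replicate 2 was the highest of the overlapping values (log2 fold change 0.02, 95% interval -0.13 to 0.16, adjusted p = 0.964, edgeR). Slc35e3, a member of the nucleotide sugar transporter superfamily, lies 451 kb away at chr10:117733679-117746365, with 24.6, 25.7 and 24.1 CPM against 26.6, 24.9 and 25.3 in the same order. These overlapped as well (log2 fold change 0.04, 95% interval -0.086 to 0.18, adjusted p = 0.850, edgeR).

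Because the 8 flanking genes are not a complete list, all genes of the tables with a GENCODE position within 1 Mb of Lyz2 were then taken. Besides the lysozymes, 29 genes had a row and 16 were tested. Of these 16, edgeR called Cpsf6, and 0 were called lower, while it called 0.412% of all genes tested. Estimates were higher for 15 and lower for 1, with a median log2 fold change of 0.07. Over all genes tested, 8245 were higher and 8271 lower. DESeq2 called 3 of the 16 (Cpsf6, Yeats4 and Mdm1). Of the 9 tested genes that were not on the list, 0 were called by edgeR, 1 had an unadjusted p under 0.05, and DESeq2 called 1, against 9.83% and 1.38% over all genes by these rules. The gene with the smallest p of these, named after its value was seen, was Mdm1, a nuclear and centriole protein 859 kb from Lyz2, with 7.65 ± 0.684 CPM against 10.7 ± 1.02 in PKM2ΔMAC (SD, n = 3 each, log2 fold change 0.48, SE 0.11, adjusted p = 0.179, edgeR).

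**Figure D3:**
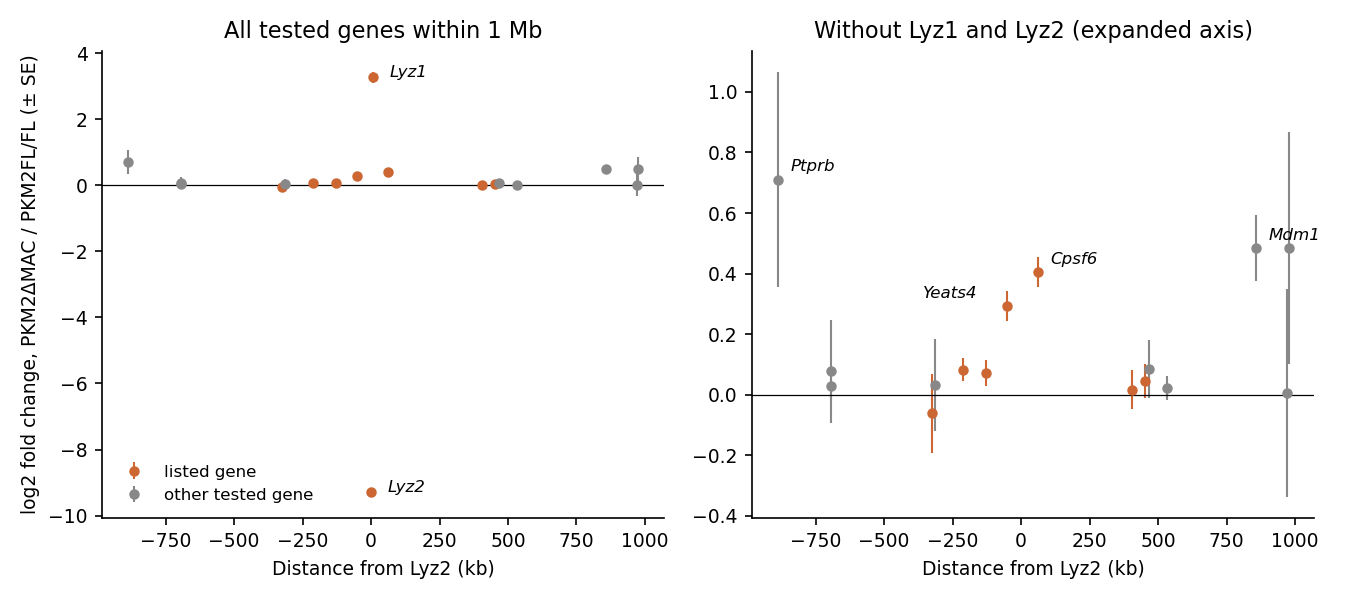
Log2 fold change with SE of the tested genes within 1 Mb, against the distance from Lyz2 in kb, with listed genes in orange and other genes in grey. The left panel includes Lyz2 at -9.29 and Lyz1 at 3.27. The right panel leaves them out and shows Yeats4 at 0.29 and Cpsf6 at 0.40 beside genes from 100 to 500 kb between -0.06 and 0.08.

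By distance, the 2 genes within 100 kb had log2 fold changes of 0.29 and 0.40. The 7 tested genes between 100 and 500 kb had a median of 0.04, from -0.06 to 0.08, and the 7 between 500 and 1000 kb a median of 0.08, from 0.0066 to 0.71. Farther out, medians were 0.02 over 8 genes to 2000 kb, -0.0022 over 20 genes to 5000 kb and -0.04 over 45 genes to 10000 kb, and none of these 73 genes was called by edgeR or DESeq2. On the whole of chromosome 10, 10 of 756 tested genes other than the lysozymes were called, or 1.32%, against 0.412% over all genes tested. After Cpsf6, the nearest of them to Lyz2 was Amd2, 81.6 Mb away, and the nearest called lower, named after its value was seen, was Eya4, 93.9 Mb away, at a log2 fold change of -0.57. Several of the 10, among them Eya4, Gm26740 and Hmgb1-ps8, lay close together, between 93.9 and 95.2 Mb from Lyz2.

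Partners in function of the flanking genes, which lie elsewhere in the genome, were examined next. Of 89 tested partners of the 8 genes, 0 were called by edgeR, 9 had an unadjusted p under 0.05, and DESeq2 called 2. Over all genes the shares were 0.412%, 9.83% and 1.38% by these rules. The median log2 fold change of the partners was 0.0086. The 15 other cleavage and polyadenylation factors lay between -0.04 and 0.16 with a median of 0.02, and Cpsf6 was above them at 0.40. The most abundant of them by TPM, the poly(A) polymerase Papola, had 226 ± 2.89 CPM against 227 ± 3.03 in PKM2ΔMAC (SD, n = 3 each, adjusted p = 0.990, edgeR). The 18 other subunits of the TIP60 and SRCAP complexes lay between -0.14 and 0.11 with a median of 0.01, and Yeats4 was above them at 0.29. Morf4l1, the most abundant of these, had 208 ± 1.41 and 210 ± 1.55 CPM (adjusted p = 0.938, edgeR).

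The other tested flanking genes lay within the range of their partners, except Cct2 at 0.08. The other 8 TRiC subunits reached at most 0.05 with a median of 0.02, and Cct5, the most abundant, had 158 ± 2.89 and 159 ± 3.21 CPM (SD, n = 3 each, adjusted p = 0.939, edgeR). For 11 receptor signalling partners of Frs2 the median was -0.02, and the adaptor Grb2 had 321 ± 7.92 and 310.0 ± 13.9 CPM (adjusted p = 0.790, edgeR). For 10 genes of the Rab8 and Rab11 pathway it was -0.02, and Rab8b had 391 ± 1.57 and 378 ± 14.0 CPM (adjusted p = 0.760, edgeR). For 20 p53 regulators and targets beside Mdm2 it was -0.01, and Rps27l had 54.1 ± 1.40 and 54.5 ± 3.48 CPM (adjusted p = 0.971, edgeR). For 3 related transporters of Slc35e3 it was 0.02, and Slc35e1 had 119 ± 4.42 and 121 ± 3.05 CPM (adjusted p = 0.900, edgeR). Among 4 tested carboxypeptidases related to Cpm, Cpd, the most abundant, had 298 ± 7.07 and 349 ± 9.55 CPM (0.22 on the log2 scale, SE 0.04, adjusted p = 0.0751, edgeR).

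**Figure D4:**
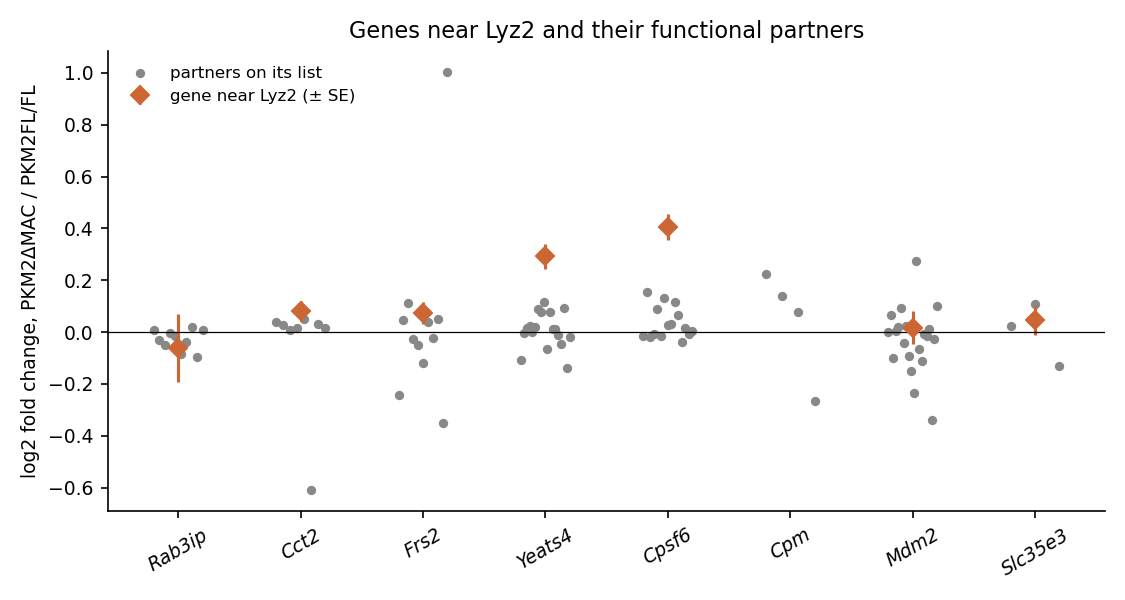
Log2 fold change of each flanking gene (orange diamond with SE) and of its tested partners (grey points). Cpsf6 at 0.40 and Yeats4 at 0.29 lie above their partners, while no value is drawn for Cpm, which was not tested.

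Per length, the order of the 10 genes in PKM2FL/FL was Lyz2 (47420 TPM), Cct2 (232), Yeats4 (92.3), Mdm2 (84.2), Lyz1 (34.2), Frs2 (25.7), Cpsf6 (24.7), Slc35e3 (24.7), Rab3ip (8.39) and Cpm (0.0786). The ranges of Frs2, Cpsf6 and Slc35e3 overlapped from each to the next, so their order is not resolved. In PKM2ΔMAC the order was Lyz1 (346 TPM), Cct2 (259), Yeats4 (119), Mdm2 (89.7), Lyz2 (79.4), Cpsf6 (34.4), Frs2 (28.5), Slc35e3 (26.7), Rab3ip (8.48) and Cpm (0.132), where Mdm2 and Lyz2, and Frs2 and Slc35e3, overlapped. By mean TPM, Lyz2 thus passed from the first to the fifth place, where its order with Mdm2 is not resolved. Lyz1 passed from the fifth to the first, and Cpsf6 moved clear of Frs2. TPM has the same total in every library, Lyz2 included, and the median log2 fold change over genes was 0.06 on log2(TPM + 1), against -0.0023 after each library was rescaled without Lyz2.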

How the data were processed

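RNA-seq tables of 6 BMDM libraries, 3 per genotype, were used. Raw counts by gene symbol and TPM values, scaled by gene length and library, were deposited by the authors. Per the labels, the processing notes list FastQC 0.12.1, Trim Galore 0.6.10, HISAT2 2.2.1, SAMtools 1.19.2, Subread 2.0.6 and build mm10 (GRCm38). The annotation, strand setting and TPM method are not given in the sources used here. Table columns were matched to libraries by genotype and mouse number.

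Counts of 16516 genes kept by filterByExpr were fitted with edgeR 4.0.16 (R 4.3.3, limma 3.58.1), TMM scaling, genotype as the only term and robust estimation. A gene was called when its adjusted p (Benjamini-Hochberg, over all genes tested) was under 0.05. SE was taken as the size of the log2 fold change over the root of its F statistic. Library totals of 49957449 to 54524651 counts leave the spread between mice as the main error except for genes with few counts such as Cpm. Pairs of libraries of a genotype differed by more than sampling noise (chi-square per degree of freedom of 7.55 to 53.8). The fits were tested on simulated counts, and the results of that are not given here.

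Positions came from GENCODE M21, in which 23349 of 23935 symbols were found, and transcript sequences from the same release. Promoters of all 10 genes were found in the RefSeq table. The members, gene lists and tests were chosen with earlier results of these data known. Named were the 10 genes, Pkm, called genes within 1 Mb of Lyz2, the 3 genes nearest in profile to each lysozyme among those with a mean of at least 1 CPM, and the called and the most abundant members of each list. Outside this rule, Mdm1, Eya4, Acod1 and Irgm1 were named after their values were seen and 4933412E12Rik for its overlap with Rab3ip. Neutrophil markers that are also on the list of antibacterial genes were named for being shared. Alternatives were DESeq2 1.42.0, other normalizations and filters, non-robust estimation, a replicate block, each library left out, and limma-trend on TPM. The other experiments of the study were not analysed here.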

Additional observations from a re-analysis of the deposited data

How the results depend on the processing

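The log2 fold change of Lyz2 lay between -9.38 and -9.19 and that of Lyz1 between 3.15 and 3.40 under all 18 alternatives, and the summed lysozyme level moved from -6.92 (CPM) to -6.80 (TPM). The number of genes called over all genes was 280 with DESeq2, 120 with no filter on low counts, and on TPM with limma-trend 41 (pseudocount 1), 32 (pseudocount 0.1), 36 (no filter) and 33 (rescaled without Lyz2, an alternative added after the data were seen). It ranged from 22 to 299 when each library was left out, with 22 to 27 without a PKM2FL/FL library and 299 without PKM2ΔMAC replicate 2. Called flanking genes numbered 2 with DESeq2 and with no filter, 0 in the 4 fits on TPM, and 0 to 2 when each library was left out. Called genes within 1 Mb numbered 3 with DESeq2, 2 with no filter, 0 in the 4 fits on TPM, and 0 to 2 when each library was left out. Yeats4 was called with DESeq2 at 0.29 and with no filter at 0.29 (adjusted p = 0.0288), and its fold change was 0.26 to 0.32 when each library was left out. Cpsf6 was not called on TPM, at 0.46 (pseudocount 1, with or without the filter), 0.47 (pseudocount 0.1) and 0.39 (rescaled without Lyz2), with adjusted p from 0.101 to 0.176, and its fold change was 0.36 to 0.45 when each library was left out. Over its alternatives the adjusted p of Cpsf6 ranged from 4.91e-07 to 0.176 and that of Yeats4 from 0.00302 to 0.296. The cause of these changes was not tested. Neither Rab3ip nor Mdm2 was called under any alternative, and their signs turned, for Rab3ip to 0.04 without PKM2ΔMAC replicate 3 and to 0.0066, 0.0065 and 0.0066 on TPM, and for Mdm2 to -0.02 without PKM2FL/FL replicate 3 and -0.06 without PKM2ΔMAC replicate 2. When each library was left out, Rab3ip ranged from -0.141 to 0.0431 and Mdm2 from -0.0587 to 0.0557.

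Libraries with the same mouse number correlated in their deviations from the group means at 0.0797, 0.141 and 0.0188, so the numbers were not taken as pairs, although 5 of the 6 libraries were closest to their own number. With a replicate block 82 genes were called, Cpsf6 at 0.40 (adjusted p = 0.0105), while Yeats4 stayed at 0.29 (adjusted p = 0.0556). Of the 10 genes, the filter on low counts left out only Cpm, at 6 to 20 counts per library, and of the 29 genes within 1 Mb besides the lysozymes 16 had enough counts for the test.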
